A study of Mus musculus with 75 samples.

Results

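Female and male germ cells of the mouse embryo at E14.5, the stage in days after mating, were compared in 4 libraries, 2 of each sex, out of the 75 libraries of the series. The libraries were taken by their labels, which give stage and sex, and the comparison covers the 23740 autosomal genes among the 26218 genes of the deposited table. The cells came from embryos of an equal cross of ICR and C57BL/6 mice that carried 1 copy of a Ddx4-RFP transgene, and red fluorescent cells were sorted in both sexes. The labels call the female cells fetal oocytes and the male cells prospermatogonia. RNA was amplified from 1 ng and sequenced at the 3′ ends of transcripts (SC3-seq). The neighbouring stages serve as a background: E15.5 cells had the same reporter, while E13.5 and E12.5 cells carried Dppa3-EGFP and were sorted as green cells, so that between E13.5 and E14.5 stage and reporter cannot be told apart. The labels do not say how many embryos went into a library or whether the 2 libraries of a group came from separate animals, so each p-value speaks of the spread between libraries only, which may be technical.

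In the fetal gonad, germ cells of the ovary leave mitosis, copy their DNA a last time and enter the prophase of meiosis, where homologous chromosomes pair and recombine. Germ cells of the testis stop dividing as prospermatogonia, do not enter meiosis, and prepare the piRNA pathway and the de novo DNA methylation that will repress transposons. BMP and retinoic acid act on the female side, and Nodal signalling and the RNA-binding protein Nanos2 on the male side.

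The 4 libraries held an estimated 3.32 to 3.65 M reads each, so 3 reads, the smallest amount taken as measured, correspond to 0.822 to 0.904 RPM (reads scaled to a common library total). Both pairs of replicates correlated at r = 0.984 (male) and 0.985 (female) over log2 values, and libraries of different sex at 0.894 to 0.898. The summed level of 8 germ cell markers was 5265 and 4907 RPM in the female libraries and 6967 and 6858 in the male libraries, and none was at 0. Of these markers 2 were called higher and 3 lower in females, the lower ones being Dppa3, Pou5f1 and Dnd1. The sums therefore mix markers that differ by sex and do not compare identity between the sexes. The RNA helicase Ddx4, whose promoter is used for the reporter, measured 595 and 570.0 RPM in females and 734 and 741 in males. Somatic markers were low, with 12.6 to 36.6 RPM summed over 10 Sertoli cell genes and 20.2 to 31.5 over 8 pre-granulosa genes, and the Sertoli genes Amh and Cldn11 were at 0 in all 4 libraries. The Leydig cell genes summed to 8.25 and 5.75 RPM in females and 83.8 and 38.3 in males. Male replicate 1 stood apart in fibroblast genes (126.5 RPM against 31.5 to 41.1 elsewhere) and in blood and macrophage genes (199.4 against 42.4 to 94.8). What part these cells have in the results was not tested. Among the 442 tested list members and named genes, 141 lie over part of another RefSeq gene, and whether reads were counted by strand is not given in the sources used here, so reads of such genes and their partners cannot be told apart.

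Of 11705 autosomal genes tested, 5597 (47.8%) were called, 2551 (21.8%) higher and 3046 (26.0%) lower in females. A call needed a Benjamini-Hochberg adjusted p below 0.05 from limma and a difference of at least 1 in log2(RPM + 1), a scale that understates the fold change of low genes. At a difference of 3 or more there were 249 genes higher (2.13%) and 406 lower (3.47%). These strong sets depend on the settings, with 413 and 817 genes at a pseudocount of 0.25, 109 and 128 at 4, and 151 and 373 under spike-in scaling. The 249 genes held 3.67% and 3.76% of the signal in the female libraries against 0.241% and 0.245% in the male ones, and the 406 genes held 0.2004% and 0.163% against 3.18% and 3.15%. Both sets were picked by their difference in these same libraries, so the contrast in signal follows from the choice and only shows their size. In bulk RNA, fewer cells with a transcript and less transcript per cell cannot be told apart. The median of all autosomal differences was -0.08. How the calls divide between the sexes moves with the scaling: quantile normalization gave 2825 and 2885, and scaling to the spike-in transcripts, which moved the median to -0.29, gave 1946 and 3468. Spike-in transcripts measured 40346.6 and 39966 RPM in females and 34578.8 and 33174 in males.

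**Figure D1:**
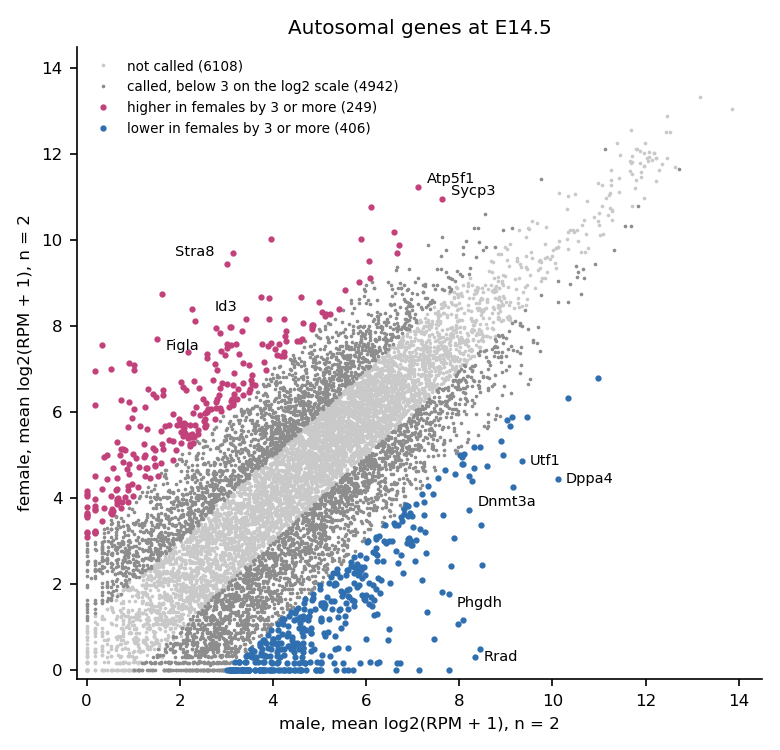
Each point is 1 of the 11705 autosomal genes tested, with the mean log2(RPM + 1) of the 2 male libraries on the x axis and of the 2 female libraries on the y axis. Light grey points were not called, dark grey points were called with a difference under 3, and the coloured points are the 249 genes higher (pink) and 406 lower (blue) in females by 3 or more.

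A small set of genes was present in a single sex. With at least 20 RPM in both libraries of one sex and under the 3-read floor in both of the other, there were 5 female-only genes (Tchh, Msx1as, 4930524B15Rik, Mei1 and BC051142) and 38 male-only genes, while 4525 genes reached 20 RPM in all 4 libraries. Msx1as overlaps Msx1, which stood at 4.42 and 2.74 RPM in females, so reads of Msx1as and Msx1 cannot be told apart. The male-only genes included Afp, the fetal serum protein, at 42.8 and 47.2 RPM, Enpep, a membrane aminopeptidase, at 52.4 and 50.3, and Plac8 at 51.2 and 44.9, and all 3 were at 0 in both female libraries. These 3 were chosen after their values were seen. Over the autosomes, 18.6% (chromosome 4) to 27.7% (chromosome 6) of the genes tested were higher and 22.4% (chromosome 12) to 30.9% (chromosome 10) lower in females.

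The chromosome axis and the synaptonemal complex, the zipper between paired chromosomes, showed the sex difference in every member tested. Altogether 14 of 14 genes were higher in females, against 21.8% of autosomal genes, with a median log2 fold change of 2.82 against -0.08. Smc1b, a meiotic cohesin, measured 1669 and 1850 RPM in the female libraries and 67.2 and 68.0 in the male libraries (log2 fold change 4.68, SE 0.15, adjusted p = 1.27e-17). Syce2, of the central element, measured 943 and 1158 RPM in females and 55.4 and 61.4 in males (4.14, SE 0.10, adjusted p = 3e-19). Sycp3, a core protein of the axis, measured 1866 and 2131 RPM against 191 and 206 (3.32, SE 0.25, adjusted p = 5.01e-11). The male levels of these genes were still well over the 3-read floor. The cohesin subunit Rec8 stood at 197 and 190.4 RPM in females and 13.3 and 15.7 in males, and the axis protein Hormad2 at 149.9 and 188 against 14.46 and 22.3. The smallest difference in the list was that of 4930447C04Rik (Six6os1), a central element protein, at 1.85.

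Of 7 genes for meiotic DNA breaks 6 were higher and none lower, against 21.8% and 26.0% of autosomal genes. The list median was 3.26. Prdm9, the histone methyltransferase that places recombination hotspots, measured 95.4 and 89.3 RPM in females and 0.904 and 2.29 in males (log2 fold change 5.22, SE 0.42, adjusted p = 1.97e-10). Ccdc36 (Iho1), a partner of the break machinery, measured 122 and 94.8 RPM against 6.03 and 5.14, and Mei4, its partner, 40.3 and 47.1 against 3.92 and 3.43. Spo11, the enzyme that cuts the DNA, measured 173.5 and 108 RPM in females and 19.9 and 22.3 in males (2.64, SE 0.32, adjusted p = 1.46e-07). The female libraries were higher in all 4, and the log2 fold change of Spo11 was the smallest of them. The member not called was 2410076I21Rik (Rec114), at 68.3 and 71.2 RPM in females and 28.9 and 64.0 in males (0.68, adjusted p = 0.0511), where 1 male library came close to the females.

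In strand exchange and crossover formation 18 of 21 genes were higher and 1 lower in females, against 21.8% and 26.0% of autosomal genes. The list median was 2.28. Rad51ap2, a gene of meiotic recombination, measured 160.2 and 177 RPM in females and 3.62 and 3.43 in males (log2 fold change 5.23, SE 0.44, adjusted p = 3.89e-10). Dmc1, the meiotic recombinase, measured 270.4 and 234 RPM against 8.13 and 6.86, and Msh5, which stabilises crossover intermediates, 88.1 and 99.2 against 3.62 and 5.14. The male libraries were below 9 RPM in all 3. Brca2, which mitotic cells also use for DNA repair, measured 333 and 329 RPM in females and 49.4 and 39.4 in males (2.88). Mnd1, a cofactor of Dmc1, went the other way, at 42.4 and 38.6 RPM in females and 119 and 153 in males (-1.71, SE 0.19, adjusted p = 2.23e-08), whereas its binding partner Psmc3ip (Hop2) was higher in females, at 49.8 and 36.7 RPM against 11.4 and 14.9 (1.64). The 2 members not called were Trip13, an ATPase that strips HORMA proteins from the axis, with 47.4 and 46.8 RPM against 55.7 and 49.4 (-0.15), and Rnf212, a crossover factor, with 54.5 and 38.6 against 28.3 and 39.4 (0.45), whose groups overlapped.

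The list of telomere attachment and nuclear envelope genes, which also holds lamins and telomere cap genes, was mixed. Of 12 genes 5 were higher and 3 lower, against 21.8% and 26.0% of autosomal genes. The 3 lower ones were Sun2 and the cap genes Terf2 and Pot1a. Ccdc155 (Kash5), the outer membrane link to dynein, measured 33.0 and 34.8 RPM in females and 0.301 and 1.43 in males, and its inner membrane partner Sun1 measured 188 and 167 against 72.3 and 96.3 (log2 fold change 1.08). The related Sun2 was lower in females, at 0.884 and 1.37 RPM against 5.42 and 18.6. Of the telomere cap, Terf2 measured 9.42 and 11.8 RPM in females against 34.9 and 40.01 in males, and Pot1a 42.1 and 25.2 against 116 and 115 (-1.79, SE 0.19, adjusted p = 2.23e-08). Terf1, also of the cap, measured 74.8 and 66.6 RPM against 34.3 and 39.4 (0.92, adjusted p = 0.000204), below the fold limit, so the cap genes differed in sign. Sun2 and Terf1 were chosen after their values were seen.

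**Figure D2:**
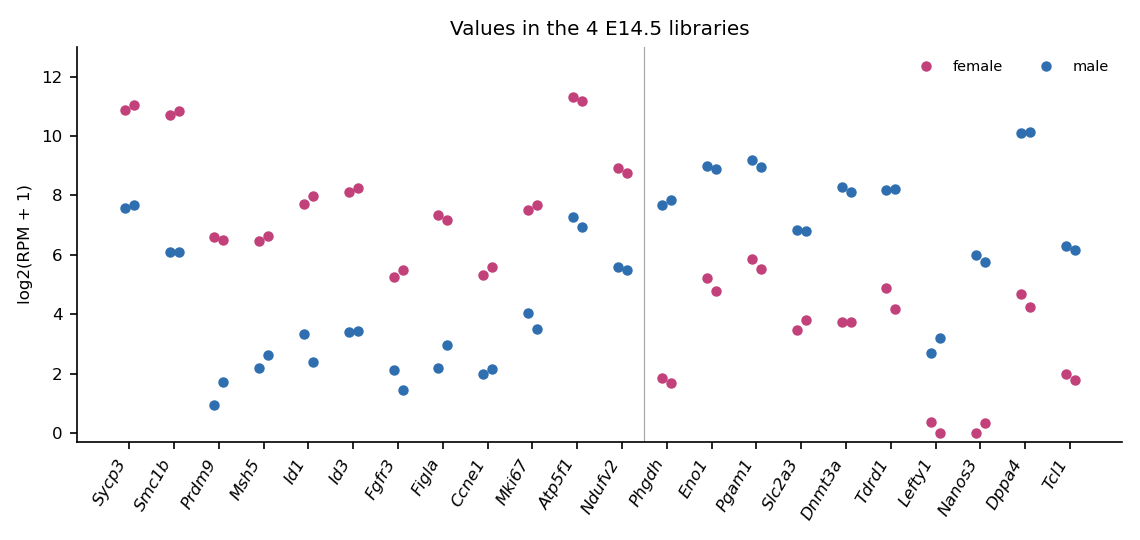
Each point is log2(RPM + 1) of 1 gene in 1 of the 4 E14.5 libraries, pink for female and blue for male, with genes higher in females left of the grey line and genes lower in females right of it. The 2 libraries of a sex sit close together beside the distance between the sexes for all 22 genes shown. The genes were picked among those called in these libraries, so this follows from the choice.

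The promoters of the genes that moved were searched for 3 motifs, to show what sequence lies at the starts of genes that differ together. RefSeq (GRCm38.p6) gave a promoter, from 250 bases before to 50 after the start, for 9338 of the 11705 genes tested. The first start listed was used where a gene had more than 1 (1934 genes), and the most upstream one gave CNCCTCAG in 9.46% of all, 22% of strongly higher and 10.1% of strongly lower genes. The motifs, each counted on both strands, were CNCCTCAG, reported for the meiotic regulator STRA8, CACGTG, the E-box, and GCGGGAA, of the E2F type, and no motif contains another. CNCCTCAG was in 9.36% of all promoters, in 13.9% and 6.92% of those of genes called higher and lower, and in 21.5% and 10.1% of those with a difference of 3 or more. GCGGGAA was in 9.16% of all, 14.8% of strongly higher and 2.78% of strongly lower genes, and CACGTG in 10.6%, 7.18% and 9.72%. Over the 37 meiotic list promoters GCGGGAA was found in 13 (35.1%), CACGTG in 10 (27%) and CNCCTCAG in 6 (16.2%). The median number of CG dinucleotides was 22 over all promoters, 22 over strongly higher and 14 over strongly lower genes. These shares describe letters in a window and show no binding. The 3 meiotic and 3 prospermatogonial genes with the largest change among those with a promoter are printed 5′ to 3′ on the strand of the gene, in lower case with motif matches in capitals. Msh5 and Hfm1, a crossover helicase, follow as the 2 meiotic genes with the largest change whose promoter holds CNCCTCAG on either strand, a choice made after the values were seen.
Mei1 (chr15:82082226-82082525, plus strand): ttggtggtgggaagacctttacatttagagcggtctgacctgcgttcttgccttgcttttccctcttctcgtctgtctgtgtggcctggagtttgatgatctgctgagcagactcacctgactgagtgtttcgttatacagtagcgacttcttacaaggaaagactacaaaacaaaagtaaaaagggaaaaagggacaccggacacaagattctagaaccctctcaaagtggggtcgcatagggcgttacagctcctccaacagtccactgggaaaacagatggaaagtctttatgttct
Rad51ap2 (chr12:11455805-11456104, plus strand): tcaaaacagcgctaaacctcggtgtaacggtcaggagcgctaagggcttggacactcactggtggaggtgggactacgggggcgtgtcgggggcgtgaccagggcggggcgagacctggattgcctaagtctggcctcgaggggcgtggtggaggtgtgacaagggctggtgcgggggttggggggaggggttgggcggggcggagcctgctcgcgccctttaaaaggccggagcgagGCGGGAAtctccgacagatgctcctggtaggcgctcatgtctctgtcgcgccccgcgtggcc
Prdm9 (chr17:15563282-15563581, minus strand): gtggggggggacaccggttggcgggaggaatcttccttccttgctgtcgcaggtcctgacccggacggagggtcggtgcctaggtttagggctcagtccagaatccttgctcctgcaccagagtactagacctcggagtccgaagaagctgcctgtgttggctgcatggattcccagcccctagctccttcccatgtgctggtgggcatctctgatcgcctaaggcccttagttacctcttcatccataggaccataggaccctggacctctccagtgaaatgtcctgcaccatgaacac
Dnmt3l (chr10:78042037-78042336, plus strand): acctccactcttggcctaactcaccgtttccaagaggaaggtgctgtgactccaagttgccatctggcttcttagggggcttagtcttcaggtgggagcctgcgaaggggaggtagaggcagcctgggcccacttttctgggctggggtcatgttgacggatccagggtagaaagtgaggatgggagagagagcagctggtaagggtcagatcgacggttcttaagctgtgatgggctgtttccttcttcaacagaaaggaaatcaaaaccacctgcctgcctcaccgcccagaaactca
Piwil4 (chr9:14740623-14740922, minus strand): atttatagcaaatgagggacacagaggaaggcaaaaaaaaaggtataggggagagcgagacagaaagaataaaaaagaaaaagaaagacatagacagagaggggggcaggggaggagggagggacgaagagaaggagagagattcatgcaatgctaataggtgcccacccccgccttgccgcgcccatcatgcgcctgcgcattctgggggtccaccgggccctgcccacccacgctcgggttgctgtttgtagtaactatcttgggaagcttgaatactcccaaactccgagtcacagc
Egr4 (chr6:85513540-85513839, minus strand): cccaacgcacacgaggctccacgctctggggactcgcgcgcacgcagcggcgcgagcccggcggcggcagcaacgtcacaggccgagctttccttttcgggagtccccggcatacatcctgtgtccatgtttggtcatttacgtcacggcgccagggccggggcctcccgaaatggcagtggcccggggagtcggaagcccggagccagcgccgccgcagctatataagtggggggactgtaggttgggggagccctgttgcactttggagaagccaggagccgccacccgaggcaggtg
Msh5 (chr17:35046573-35046872, minus strand): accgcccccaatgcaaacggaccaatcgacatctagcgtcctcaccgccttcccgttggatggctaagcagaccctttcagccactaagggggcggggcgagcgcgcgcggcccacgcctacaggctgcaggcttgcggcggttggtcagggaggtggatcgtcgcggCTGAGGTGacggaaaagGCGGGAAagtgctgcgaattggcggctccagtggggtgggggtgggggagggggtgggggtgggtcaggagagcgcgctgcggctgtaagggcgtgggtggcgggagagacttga
Hfm1 (chr5:106925841-106926140, minus strand): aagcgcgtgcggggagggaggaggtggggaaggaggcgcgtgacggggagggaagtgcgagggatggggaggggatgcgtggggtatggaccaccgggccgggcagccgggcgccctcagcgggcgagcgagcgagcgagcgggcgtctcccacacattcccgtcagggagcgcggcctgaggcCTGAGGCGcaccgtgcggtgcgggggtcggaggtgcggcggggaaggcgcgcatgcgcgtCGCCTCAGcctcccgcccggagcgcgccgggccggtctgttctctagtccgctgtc
The Mei1 start, the single one listed, lies 12402 bases inside the gene's annotated span and that of Prdm9 1043 bases, so the motif search of these genes holds for these starts only. Of the first 6 promoters only that of Rad51ap2 holds a match, GCGGGAA 12 bases before the start. Msh5 has CTGAGGTG 82 bases and GCGGGAA 65 bases before its start. Hfm1 has CTGAGGCG 66 bases and CGCCTCAG 6 bases before its start.

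Signalling genes were read from ligand to target. Stra8, the retinoic acid-induced gatekeeper of meiosis, measured 641 and 755 RPM in females and 5.72 and 8.57 in males, and it was the single gene of 11 tested in the retinoid list that was called higher in females. Another 6 members were lower, against 26.0% of autosomal genes, with a list median of -1.18. The retinoid-binding protein Crabp2 measured 14.1 and 5.48 RPM in females and 41.6 and 48.6 in males (log2 fold change -2.21, SE 0.33, adjusted p = 2.8e-06). Its sister Crabp1 had the opposite sign and fell just short of the fold limit, at 43.3 and 40.5 RPM in females and 18.4 and 22.9 in males (0.996, adjusted p = 0.000811). Of the receptors, Rxra measured 12.96 and 11.2 RPM against 47.3 and 37.2 (-1.72), and Rara and Rarg were called as well (-1.18 and -2.04). Aldh1a2, an enzyme that makes retinoic acid, measured 7.66 and 11.504 RPM in females and 27.7 and 22.9 in males. The synthesis enzyme Aldh1a1 was lower in females too (-2.44). The receptor Rxrb did not pass the test, at 42.4 and 38.1 RPM in females and 39.5 and 45.7 in males (-0.08, adjusted p = 0.746), and Rarb and Rxrg were too low to be tested. The degrading enzymes Cyp26a1 and Cyp26b1 stayed under 3 RPM in all 4 libraries and were not tested. Rara, Rarg, Rxrb, Crabp1, Aldh1a1 and the Cyp26 genes lie outside the rule for named genes and were chosen after their values were seen.

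In the BMP list 10 of 19 genes were higher and 5 lower in females, against 21.8% and 26.0% of autosomal genes. Its targets also went both ways. Id1 measured 209 and 249 RPM in females and 9.04 and 4.29 in males, Id3 276 and 301 against 9.64 and 9.72, and Id2 28.3 and 26.6 against 2.41 and 1.71. Their log2 fold changes were 4.98, 4.76 and 3.22 (adjusted p = 9.55e-13, 9.56e-16 and 2.58e-09). Id4, the fourth member of this family of helix-loop-helix inhibitors, did not follow, with 22.97 and 22.2 RPM in females and 27.4 and 31.1 in males (-0.36, adjusted p = 0.27). Hey1, a transcriptional repressor listed here as a BMP target, was lower in females, at 5.01 and 3.29 RPM against 27.4 and 41.7 (-2.78, SE 0.25, adjusted p = 8.27e-10). The decoy receptor Bambi was lower too, at 11.2 and 7.12 RPM in females against 22.6 and 16.6 in males (-1.03). The inhibitor Smad7 measured 7.36 and 10.96 RPM against 15.7 and 18.6 (-0.85), below the fold limit. Gata2, a zinc finger factor downstream of BMP, measured 89.2 and 82.7 RPM against 8.44 and 7.43 (3.28, SE 0.31). The BMP receptors differed in both directions. Bmpr2 measured 39.5 and 35.6 RPM in females and 6.93 and 6.001 in males (2.37), and Bmpr1a 144 and 150.1 against 54.5 and 48.9 (1.49), while Bmpr1b was at 0 in both female libraries and at 8.74 and 7.43 RPM in males. The type I receptor Acvr1 was lower in females too, at 2.95 and 1.92 RPM against 6.63 and 10.9 (-1.49). The transducer Smad5 was higher in females (78.3 and 84.4 RPM against 23.8 and 37.2), and the shared partner Smad4 lower (56.0 and 46.0 against 103 and 105, -1.02). Bmpr1a, Bmpr1b, Acvr1, Smad4, Smad5, Smad7, Bambi and Id4 were chosen after their values were seen.

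The Nodal list had 2 of 14 genes higher and 6 lower, against 21.8% and 26.0% of autosomal genes. Nodal itself was among the lower (1.18 and 0.548 RPM in females, 10.54 and 4.86 in males). Its feedback inhibitors Lefty1 and Lefty2 were at 5.42 and 8.14 RPM and at 6.63 and 6.14 RPM in males, against 0.295 and 0, and 0 and 0, in females. The activin receptor Acvr1b measured 10.3 and 10.4 RPM in females and 43.4 and 41.2 in males (log2 fold change -1.93, SE 0.21, adjusted p = 2.41e-08). Both genes higher in females, Furin (13.55 and 17.5 RPM against 3.62 and 4.57) and Pcsk6 (21.5 and 11.8 against 6.63 and 4.001), encode proteases that process Nodal precursors. Lefty1 and Lefty2 had been higher at E13.5, with male means of 321 ± 10.4 and 170.5 ± 7.03 RPM (SD, n = 2), and by E14.5 the sex difference had moved towards females by 4.64 and 4.54 on the log2 scale (adjusted p = 5.54e-08 and 1.85e-06). Nodal, Lefty1, Lefty2, Furin and Pcsk6 were chosen after their values were seen.

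FGF and Wnt genes showed single large differences within lists near the background of 21.8% higher and 26.0% lower. Of 17 FGF genes 3 were higher and 3 lower, and of 14 Wnt genes 4 were higher and 3 lower. Fgfr3, a receptor, measured 36.8 and 43.8 RPM in females and 3.31 and 1.71 in males (log2 fold change 3.59, SE 0.37, adjusted p = 1.19e-08). Etv5, a transcription factor downstream of FGF, went the other way at 17.96 and 18.4 RPM against 57.8 and 50.0 (-1.52). Of the Wnt list, the R-spondin receptor Lgr4 measured 55.4 and 55.3 RPM in females and 11.1 and 6.86 in males (2.53), and the feedback gene Nkd1 67.1 and 69.0 against 7.83 and 15.1 (2.53). Tcf7, a nuclear partner of β-catenin, was lower in females at 78.3 and 67.1 RPM against 272 and 237 (-1.80, SE 0.17, adjusted p = 3.1e-09). Axin2, a common target of the pathway, did not differ by the call rule, at 8.25 and 8.22 RPM in females and 7.23 and 5.14 in males.

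**Figure D3:**
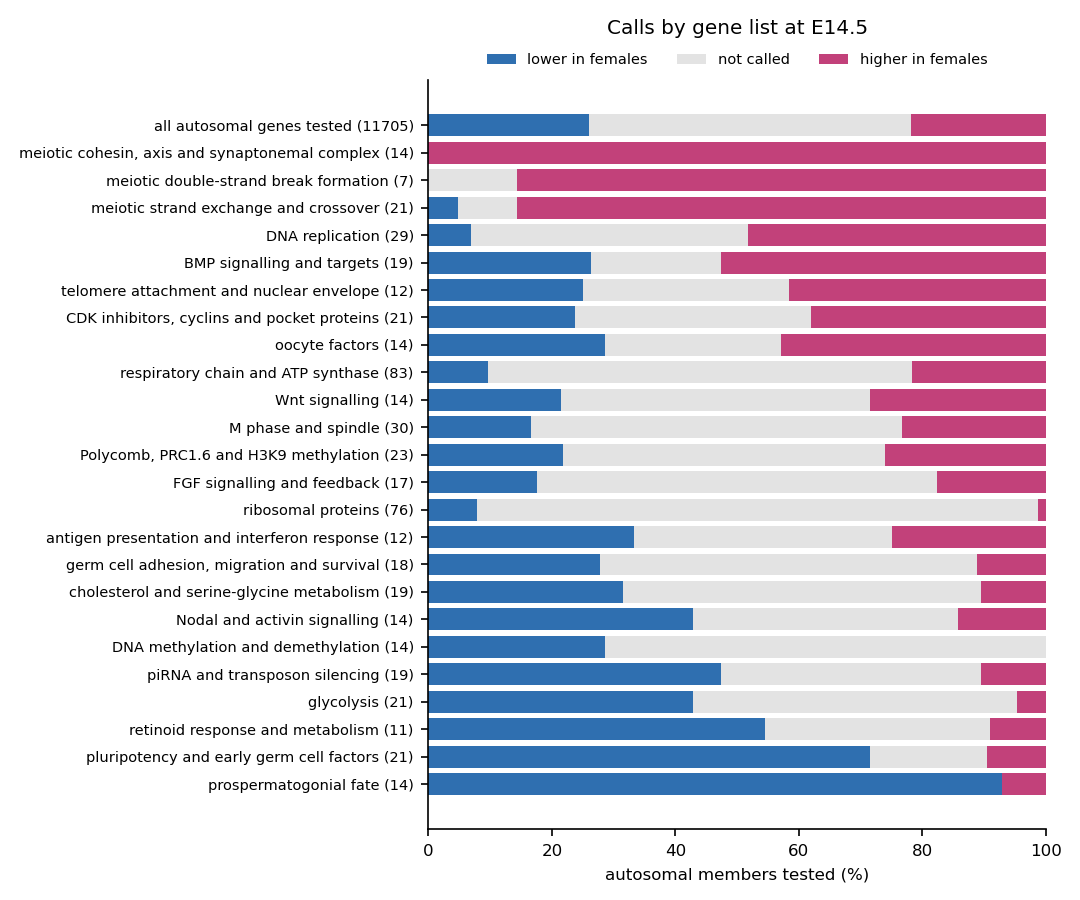
Bars give, for each gene list, the percentage of its autosomal members tested that were called lower (blue), not called (grey) or called higher (pink) in females at E14.5, with the number tested in brackets and all 11705 autosomal genes as the top bar. The 3 meiotic lists are nearly all pink, with 14 of 14, 6 of 7 and 18 of 21 members, and 13 of 14 prospermatogonial members are blue.

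On the male side, 13 of 14 genes of the prospermatogonial list were lower in females, against 26.0% of autosomal genes, with a median of -4.71. Nanos3, an RNA-binding protein of germ cell survival, measured 62.1 and 53.2 RPM in males and 0 and 0.274 in females. Tdrd5, a Tudor protein of piRNA granules, measured 401 and 367 RPM in males and 26.8 and 25.5 in females (log2 fold change -3.82, SE 0.15, adjusted p = 9.72e-16), and the helicase Tdrd9 180.5 and 221 against 9.13 and 13.7 (-4.04). Dnd1, the partner of the Nanos proteins, measured 596 and 546 RPM in males and 20.9 and 15.9 in females (-4.89). The exception was Tex101, a surface protein of germ cells, at 944 and 972 RPM in females and 174 and 145 in males (2.59, SE 0.27, adjusted p = 9.57e-09). The list was drawn up with results of these samples known, so its direction is no independent evidence.

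The piRNA list as a whole was split, with 9 of 19 genes lower and 2 higher in females, against 26.0% and 21.8% of autosomal genes. Tdrd1, a scaffold of the pathway, measured 28.3 and 17.3 RPM in females and 291 and 300.1 in males (log2 fold change -3.68, SE 0.43, adjusted p = 7.3e-08). The PIWI protein Piwil1 measured 0.295 and 1.64 RPM against 23.5 and 23.7, Gtsf1, a PIWI cofactor, 43.6 and 67.1 against 376 and 407, and 4921515J06Rik (Henmt1), which methylates piRNA ends, 5.30 and 2.19 against 39.8 and 44.9. In all 4 the male libraries were the higher ones. Gpat2, a mitochondrial acyltransferase of the pathway, and Tex15 were the 2 members higher in females: Gpat2 measured 999 and 1008 RPM against 349 and 335 (1.55), and Tex15 1164 and 1364 against 566 and 561 (1.16). The helicase Mov10l1, which loads piRNA precursors, differed little, at 286 and 283 RPM in females and 312 and 346 in males (-0.21, adjusted p = 0.318). Of the DNA methylation list, 4 of 14 genes were lower, close to the background of 26.0%, and none higher. Dnmt3a, a de novo methyltransferase, measured 12.4 and 12.3 RPM in females and 313 and 279.8 in males (-4.48, SE 0.18, adjusted p = 1.42e-15). The other 3 were the related Dnmt3b (3.24 and 1.64 RPM against 17.5 and 14.6) and the demethylating enzymes Tet1 (3.53 and 6.30 against 23.2 and 19.7) and Tet3 (3.83 and 2.47 against 7.23 and 7.72). Dnmt1, the maintenance enzyme, measured 202 and 165 RPM in females and 111 and 82.6 in males, a difference of 0.92 that fell short of the fold limit.

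Genes of pluripotency and early germ cells were lower in females in 15 of 21 cases and higher in 2. Of all autosomal genes, 26.0% were lower and 21.8% higher. Dppa4, a chromatin protein of pluripotent cells, measured 24.7 and 17.8 RPM in females and 1096 and 1114 in males (log2 fold change -5.65, SE 0.16, adjusted p = 4.6e-18). Pou5f1 (Oct4) measured 26.2 and 24.0 RPM against 329.6 and 309 (-3.62), and the AKT cofactor Tcl1 2.95 and 2.47 against 77.4 and 70.0 (-4.34). The female libraries were low in all 3, which were named for their large differences. Nanog was low in both sexes, at 1.47 and 0.548 RPM in females and 10.2 and 17.4 in males. Both exceptions were Krüppel-like factors: Klf2 measured 10.6 and 5.204 RPM in females and 2.11 and 2.29 in males, and Klf5 11.8 and 6.30 against 3.31 and 4.001. Klf4, of the same family, was called lower in females, at 10.0 and 3.29 RPM against 29.2 and 17.4 (-1.78). Nanog, Klf2, Klf4 and Klf5 were chosen after their values were seen.

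The oocyte list held genes that went both ways, 6 higher and 4 lower of 14, against 21.8% and 26.0% of autosomal genes. Figla, the factor that switches on zona pellucida genes, measured 162 and 143 RPM in females and 3.62 and 6.86 in males (log2 fold change 4.67, SE 0.53, adjusted p = 4.9e-08), while Zp1, Zp2 and Zp3 themselves were at or below 2.19 RPM in every library. The partner factors Sohlh1 and Sohlh2 had opposite signs. Sohlh2 measured 158 and 125 RPM in females and 10.8 and 8.002 in males (3.78, SE 0.24), and Sohlh1 measured 0.295 and 1.92 RPM in females and 79.8 and 98.0 in males (-5.52, SE 0.41, adjusted p = 3.24e-11). The translational regulators Ybx2 (168 and 207 RPM against 31.9 and 35.7) and Cpeb1 (193 and 183 against 60.6 and 67.2) were higher in females. Ooep, of the maternal subcortical complex, was lower in females (3.24 and 4.93 RPM against 44.7 and 50.6), as was Foxo3, the brake on follicle activation (32.7 and 19.4 against 63.6 and 58.0). The zona genes were chosen after their values were seen.

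Genes of DNA replication were higher in females in 14 of 29 cases and lower in 2, against 21.8% and 26.0% of autosomal genes. The list median was 0.96 against -0.08 for all autosomal genes. Pcna, the replication clamp, measured 675 and 616 RPM in females and 201 and 187 in males (log2 fold change 1.73, SE 0.10, adjusted p = 4.68e-13). Orc1, of the origin recognition complex, measured 88.1 and 79.4 RPM against 11.7 and 14.003 (2.61), and thymidine kinase Tk1 65.1 and 63.0004 against 6.33 and 13.7 (2.65). The helicase subunits of the Mcm family were not uniform: Mcm5 measured 382 and 379 RPM in females and 130.2 and 106 in males (1.69), Mcm7 121 and 141 against 324 and 275 (-1.19), and Mcm3 142 and 132 against 130 and 118 (0.14, not called). The list of M phase and spindle genes had a median of 0.00, with 7 of 30 higher and 5 lower. The share called, 40%, was below the 47.8% of all autosomal genes. Mki67, a coat protein of mitotic chromosomes, measured 181 and 202 RPM in females and 15.4 and 10.3 in males (3.82, SE 0.18, adjusted p = 1.01e-14), and Kif23, of the midbody, 150.2 and 143 against 19.6 and 22.004 (2.76). Ccnb1, the main mitotic cyclin, was lower in females, at 43.0 and 27.4 RPM against 168 and 175 (-2.29, SE 0.15, adjusted p = 5.59e-12), and the kinase Cdk1 that it activates did not differ, at 33.6 and 37.5 against 29.5 and 41.7. Mcm3, Mcm5 and Cdk1 were chosen after their values were seen.

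Cyclins and kinases of the G1 phase differed in both directions. Ccne1 measured 38.9 and 46.8 RPM in females and 3.01 and 3.43 in males (log2 fold change 3.37, SE 0.22, adjusted p = 4.69e-12), and its sister Ccne2 44.8 and 33.7 against 0.904 and 0.286 (4.67). Ccnd1 measured 43.9 and 46.8 RPM against 1.81 and 5.72 (3.42), while its partner kinases were lower in females, Cdk4 at 56.0 and 45.2 against 396 and 339 (-2.84, SE 0.12, adjusted p = 1.31e-15) and Cdk6 at 3.53 and 1.37 against 12.7 and 17.4. Of the inhibitors, Cdkn2d was higher in females (57.1 and 49.6 RPM against 21.7 and 19.4), Cdkn1b lower (0 and 0.274 against 4.52 and 6.57) and Cdkn1c not called (46.4 and 50.7 against 45.5 and 28.0). In the whole list 8 of 21 genes were higher and 5 lower, against 21.8% and 26.0% of autosomal genes. Cdk6, Cdkn1b and Cdkn1c were chosen after their values were seen.

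Of 21 genes of glycolysis 9 were lower and 1 higher in females, against 26.0% and 21.8% of autosomal genes. The list median was -0.73. Eno1, the enolase of most tissues, measured 36.5 and 26.4 RPM in females and 507 and 477 in males (log2 fold change -3.94, SE 0.11, adjusted p = 3.97e-18). Pgam1, the step before it, measured 57.1 and 44.9 RPM against 584 and 500.1 (-3.39), and the glucose transporter Slc2a3 10.0 and 12.9 against 114 and 110.3 (-3.19). Gapdh, often used as a reference gene, measured 656 and 575 RPM in females and 996 and 890.2 in males (-0.62, adjusted p = 7.18e-05), below the fold limit. The gene higher in females was the muscle enolase Eno3, at 19.14 and 16.2 RPM against 9.04 and 4.001. It lies outside the rule for named genes and was chosen after its values were seen.

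Phgdh, the first enzyme of serine synthesis, measured 2.65 and 2.19 RPM in females and 205 and 231 in males (log2 fold change -6.002, SE 0.26, adjusted p = 3.47e-15). The hydroxymethyltransferases Shmt2 and Shmt1, which turn serine into glycine, measured 10.6 and 3.01 RPM against 99.1 and 99.7, and 22.4 and 14.52 against 138 and 128. Psat1, the second enzyme of serine synthesis, had the opposite sign, at 109 and 81.6 RPM in females and 42.5 and 39.4 in males (1.18, SE 0.14, adjusted p = 1.08e-07). Of cholesterol synthesis, Fdft1 (squalene synthase) measured 28.9 and 31.8 RPM in females and 250.4 and 280.3 in males (-3.09, SE 0.13), and Srebf2, the transcription factor of the pathway, 26.8 and 18.6 against 122 and 109 (-2.32). Over the combined list 6 of 19 genes were lower and 2 higher, against 26.0% and 21.8% of autosomal genes.

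Of 83 respiratory chain and ATP synthase genes 18 were higher in females, close to the 21.8% of all autosomal genes, and 8 were lower, with a median of 0.33. Atp5f1 (Atp5pb), a stator subunit of ATP synthase, measured 2571 and 2299 RPM in females and 155 and 123 in males (log2 fold change 4.13, SE 0.10, adjusted p = 1.13e-19). Ndufv2, of complex I, measured 487 and 434 RPM against 47.6 and 43.4 (3.31), and Uqcrc2, of complex III, 496 and 459.6 against 105 and 97.4 (2.23). Cox8a, of complex IV, went the other way at 71.0 and 52.3 RPM against 402 and 482 (-2.83), while Cox5a of the same complex measured 1533 and 1619.5 against 362 and 388 (2.07). Subunits of one complex thus differed in opposite directions. The share called, 31.3%, was below the 47.8% of all autosomal genes. Ribosomal protein genes were called in 9.21% of cases, 1 of 76 higher and 6 lower. The 2 with the largest difference, Rpl39l (179 and 212 RPM in females against 846 and 791 in males) and Rpl10l (122 and 129 against 522 and 505), are retained copies of other ribosomal genes, so their reads may be shared with close relatives.

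Of 12 genes of antigen presentation and interferon response, 3 were higher (H2-K1, H2-D1 and H2-Ab1) and 4 lower (Tapbp, Irf1, Ifitm1 and Bst2). Of all autosomal genes, 21.8% were higher and 26.0% lower. H2-D1, a class I heavy chain, measured 67.5 and 83.3 RPM in females and 0.646 and 1.14 in males (log2 fold change 5.34, SE 0.50, adjusted p = 1.92e-09), and its near-identical relatives make the assignment of its reads uncertain. B2m, the light chain that all class I molecules need, did not differ, at 83.0 and 97.0 RPM in females and 88.0 and 72.9 in males (0.16, adjusted p = 0.726). Tapbp, a chaperone of peptide loading, was lower in females, at 2.06 and 3.29 RPM against 41.0 and 45.7 (-3.61), as was the interferon factor Irf1 (8.25 and 8.77 against 52.7 and 53.7). The class II partner H2-Aa stayed under 1 RPM in all 4 libraries, and so did the class II invariant chain Cd74 in females (0 and 0 RPM, with 1.51 and 1.14 in males). H2-Aa, Cd74 and B2m were chosen after their values were seen.

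Of the Polycomb and H3K9 methylation list 6 of 23 genes were higher and 5 lower, near the background of 21.8% and 26.0%. Ezh2, the Polycomb methyltransferase, measured 163 and 164 RPM in females and 47.3 and 40.6 in males (log2 fold change 1.88), and its core partner Eed 70.4 and 63.3 against 204 and 177 (-1.50). The H3K9 methyltransferases also parted: Ehmt2 (G9a) measured 46.2 and 50.9 RPM in females and 387 and 386 in males (-2.97, SE 0.17, adjusted p = 5.57e-13), and Setdb1 474 and 517 against 189 and 156 (1.53). E2f6, a DNA-binding member of the PRC1.6 complex, measured 3.24 and 6.85 RPM against 47.6 and 53.2 (-3.15). Of 18 genes of adhesion, migration and survival 2 were higher and 5 lower. The share called, 38.9%, was below the 47.8% of all autosomal genes. The death gene Pmaip1 (Noxa) measured 2.06 and 0.274 RPM in females and 36.5 and 50.9 in males, and Trp53 measured 5.30 and 3.56 against 20.8 and 28.3.

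Beyond the lists, the largest differences included the following genes. Fgf11, an intracellular FGF homologue, measured 80.4 and 74.0 RPM in females and 1.81 and 0 in males, and the zinc finger gene Zfp672 237 and 259.9 against 9.64 and 3.43. Ugt8a, which makes galactosylceramide, measured 423 and 400.2 RPM in females and 12.7 and 12.0 in males (log2 fold change 4.95, SE 0.29, adjusted p = 6.98e-13). Ddb2, a sensor of ultraviolet DNA damage, measured 401 and 409 RPM against 16.3 and 12.0 (4.76). Dmrtc2, a DM domain factor of spermatocytes, measured 398 and 425 RPM against 24.7 and 22.004 (4.08). Among genes lower in females, Morc1, an ATPase of transposon silencing, measured 10.0 and 8.77 RPM against 359 and 352 (-5.10, SE 0.17, adjusted p = 4.15e-17). Uchl1, a deubiquitinase of spermatogonia, measured 68.9 and 91.5 RPM in females and 1333 and 1259 in males (-4.01). The arginine methyltransferase Prmt2 measured 3.24 and 0.549 RPM against 166 and 150.2, and the prostaglandin reductase Ptgr1 5.30 and 3.83 against 343 and 376. These 9 genes were picked for their large differences, so the lack of overlap between the sexes follows from the choice.

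Comparing the sex difference at E14.5 with that at E13.5, 1861 autosomal genes (15.9%) shifted towards females and 2612 (22.3%) towards males. Scaling to spike-in transcripts, which moved the median of this comparison from -0.14 to -0.77, gave 741 and 4482. In the 1861 genes the median change of level was 1.05 in females and -0.63 in males on the log2 scale, and in the 2612 genes it was -0.92 in females and 1.00 in males. Scaled to spike-in transcripts these medians were -0.56 and -1.54, and -2.40 and 0.13, so which sex moved depends on the scaling. Of the 249 genes strongly higher at E14.5, 122 (49%) were already called higher at E13.5, when 9.71% of autosomal genes were, and 25 (10%) at E12.5, when 3.55% were. Of the 406 strongly lower genes 157 (38.7%) were called lower at E13.5, against 6.55% of all, and 44 (10.8%) at E12.5, against 2.88%. Across the 11705 genes, as a description, the E14.5 difference correlated with that at E13.5 at r = 0.439 and with that at E15.5 at r = 0.912. These stages share no library, and E15.5 shares the reporter with E14.5.

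**Figure D4:**
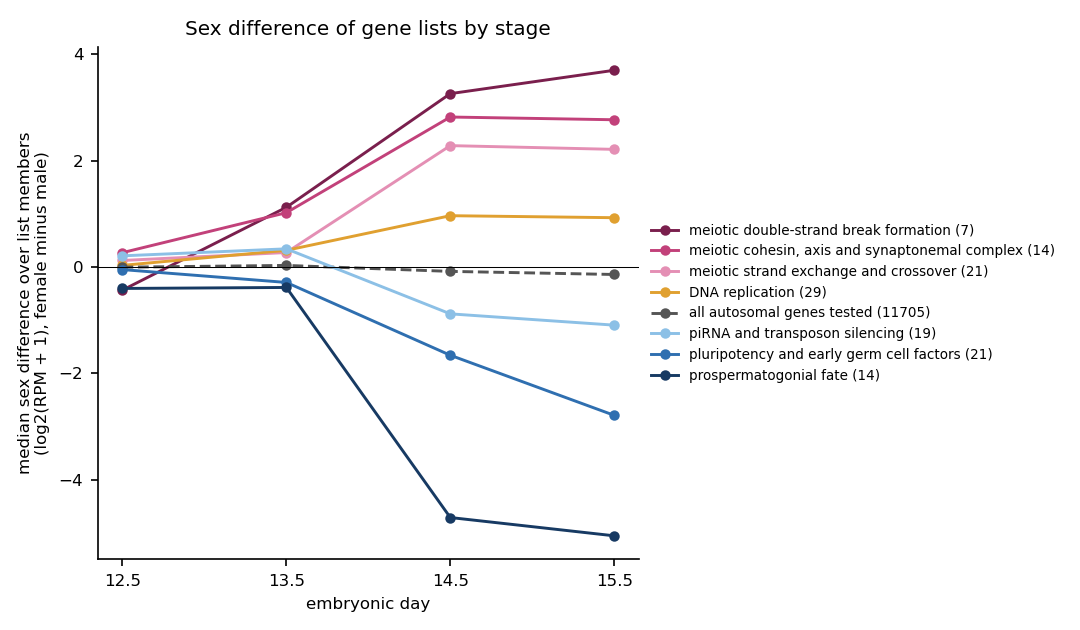
Lines give the median over list members of the female minus male difference in log2(RPM + 1) from E12.5 to E15.5, with the number of members in brackets and all autosomal genes as the dashed grey line. The prospermatogonial list goes from -0.39 at E13.5 to -4.71 at E14.5 and the strand exchange list from 0.27 to 2.28, with smaller steps to E15.5.

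Changes of level within a sex from E13.5 to E14.5 are given first as deposited. The median change of level in the break formation list was 3.26 in females and 0.67 in males, and in the axis list 2.14 and 0.55. Sycp3 went from 149 ± 21.5 to 1999 ± 188 RPM in females and from 46.2 ± 2.01 to 199 ± 10.2 in males (mean ± SD, n = 2). In the prospermatogonial list the medians were -0.27 in females and 2.21 in males, and in the piRNA list 0.21 and 1.80. Pluripotency genes had medians of -3.10 in females and -1.44 in males. Replication genes had medians of -0.34 and -1.22, and Mki67, at 181 and 202 RPM in E14.5 females and 15.4 and 10.3 in males, had stood at 148 ± 6.72 and 178 ± 22.3 RPM at E13.5. Glycolysis genes had medians of -1.40 and -0.17, and all autosomal genes -0.08 and 0.07. Scaled to spike-in transcripts, whose RPM rose between the stages in both sexes, all autosomal genes had medians of -1.59 in females and -0.82 in males. The break formation list then had 1.90 and -0.10, the axis list 0.45 and -0.44, and the prospermatogonial list -1.45 and 1.23. The sign of the male medians of the break formation and axis lists thus follows the scaling. The male median of the strand exchange list was below 0 under both, at -0.09 as deposited and -1.02 under spike-in scaling. These changes within a sex were not tested.

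Named genes show these patterns one by one. Prdm9 went from 1.99 ± 0.364 RPM in E13.5 females to the values above, and its sex difference widened by 3.87 (adjusted p = 1.41e-05). Ccne2 stood at 1.70 ± 0.771 RPM in E13.5 females and 1.78 ± 0.271 in males, and its sex difference then widened by 4.74 (adjusted p = 7.26e-08). Mtl5 (Tesmin), a testis metallothionein-like gene, went from 3.61 ± 1.02 to 96.2 ± 3.92 RPM in females and from 4.36 ± 0.124 to 3.23 ± 0.121 in males. Sohlh1 was at 0 in both E13.5 male libraries and at 1.03 ± 0.997 RPM in females, so its male level at E14.5 was not seen at E13.5. Dnmt3a stood at 29.5 ± 0.922 and 34.7 ± 1.05 RPM in E13.5 females and males, before reaching means of 12.3 in females and 296 in males, with a change in the difference of -4.25 (adjusted p = 1.5e-11). Phgdh stood at 16.1 ± 2.87 and 21.4 ± 3.83 RPM at E13.5, and its sex difference changed by -5.62 (adjusted p = 4.5e-11). Stra8 itself was already high in E13.5 females, at 313 ± 13.7 RPM, and its sex difference did not change by the call rule (-0.48, adjusted p = 0.543).

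**Figure D5:**
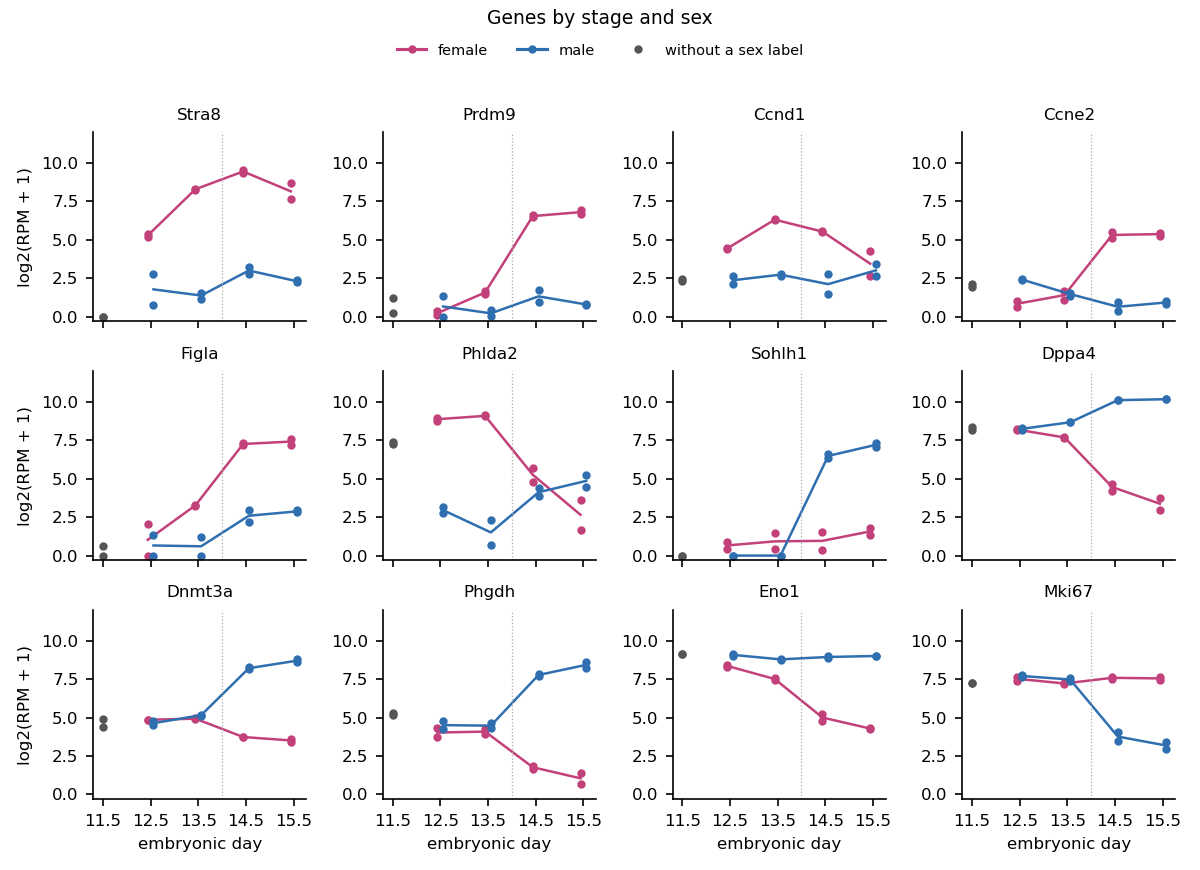
Each panel gives log2(RPM + 1) of 1 gene by embryonic day, with points for single libraries, lines through the means of the 2 female (pink) and 2 male (blue) libraries, and grey points for E11.5 libraries without a sex label. The dotted line marks the change of reporter between E13.5 and E14.5, and Dnmt3a, Phgdh and Sohlh1 part between the sexes across it while Stra8 was apart before it.

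From E14.5 to E15.5 the sex difference shifted towards females in 117 autosomal genes (1.00%) and towards males in 392 (3.35%). This comparison shares the E14.5 libraries with the one above. Scaling to spike-in transcripts, which moved the median from -0.03 to 0.59, gave 1761 and 86, and quantile normalization 187 and 325. Of the 249 strongly higher genes 246 (98.8%) were called higher at E15.5, against 23.2% of all, and of the 406 strongly lower genes 404 (99.5%) were called lower, against 30.1%. Of the 42 meiotic list members tested, the change in the sex difference was called for Rec8 and Syce3. Rec8 measured 52.2 ± 29.8 RPM in E15.5 females and 29.5 ± 0.762 in males at that stage, a change in the difference of -2.97 (adjusted p = 0.000378). Ccnd1 stood at 11.6 ± 8.95 RPM in E15.5 females and at 7.36 ± 3.07 in males. Pou5f1 reached 9.73 ± 0.417 RPM in E15.5 females and 272 ± 32.5 in males (change in the difference -1.05, adjusted p = 0.000255). Phlda2, an imprinted growth regulator, changed sides: it stood at 543 ± 21.4 RPM in E13.5 females and 2.29 ± 2.34 in males, at 51.8 and 26.6 against 13.6 and 19.7 RPM at E14.5, and at 6.74 ± 6.38 against 29.1 ± 11.3 at E15.5. Rec8 and Pou5f1 were chosen for this comparison after their values were seen.

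Markers of other gonadal cells were read beside these results. Of 6 Leydig cell genes, the steroid enzymes Cyp17a1 and Cyp11a1 were at 0 in both female libraries and at 25.3 and 8.86, and 17.5 and 9.72 RPM in males, with the higher value in male replicate 1, and Hsd3b6 was at 0 in all 4 libraries. Sertoli genes gave 3 calls of 4 tested, Ptgds (6.93 and 5.14 RPM in males, 0 in females), Gata4 (8.74 and 5.72 against 1.77 and 1.92) and Sox9, whose call rested on 3.72 RPM in male replicate 2 with 0 in the other 3 libraries. Of 4 pre-granulosa genes tested, 2 were called higher and 1 lower in females, against 21.8% and 26.0% of autosomal genes. Bmp2 was at 5.60 and 8.22 RPM in females and 0 in males, while the defining gene Foxl2 was at 0.884 and 1.37 against 0.301 and 0. The 8 pre-granulosa genes summed to 21.8 and 31.5 RPM in females and 20.2 and 26.3 in males. Globin genes were seen in both sexes: Hba-a1 measured 20.3 and 47.7 RPM in females and 90.4 and 22.7 in males. Their part in the differences above was not tested. Without male replicate 1, 5361 autosomal genes were called, and 5017 (89.6%) of the 5597 calls were kept in the same direction.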

How the data were processed

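Gene expression was measured by SC3-seq in 22 libraries of mouse embryonic germ cells, 11 groups of 2, of which the 4 E14.5 libraries are described here. The deposited values are a signal in RPM per gene, made by the authors with spike-in transcripts counted on top of the gene total, as the table's sums show (93.2% to 93.5% of low E14.5 values were whole multiples of 1 read, within 0.05). The submitters' processing notes name cutadapt 1.11, TopHat 1.4.1, Bowtie 1.0.1, Cufflinks 2.2.0 and mm10, and the strand setting is not given in the sources used here. In the table used here, 759 values below 0.001 RPM were set to 0. Chromosomes came from RefSeq GRCm38.p6 by gene ID.

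Genes with at least 5 RPM in 2 libraries were fitted with limma 3.58.1 in R 4.3.3 on log2(RPM + 1), over all 22 libraries, with Benjamini-Hochberg adjustment over all genes tested. The fit was tested on simulated data. A call needed an adjusted p below 0.05 and a difference of at least 1, and a strong call at least 3. The fitted difference of a gene at 0 depends on the pseudocount of 1 and is no bound. Differences between stages were tested as contrasts of the sex differences. A total of 3 reads was the floor, which like the reads covers counting error only.

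The members and gene lists were chosen with earlier results of these data known. Named genes were Stra8, up to 5 called members of each list and direction with at least 20 RPM in the higher sex, the 15 genes each way with the largest difference at that level, the 10 each way at 300 RPM or more, and 6 each way for each change between stages. A gene named beyond this rule was chosen after its values were seen. The ribosomal list follows symbols beginning Rpl or Rps with a number, leaving out S6 kinases, Rps19bp1 and a pseudogene. The alternatives were other pseudocounts (0.25 and 4), filters (none and 20 RPM), median centring, quantile normalization, a replicate block, leaving out each E14.5 library, a fit on 4 libraries, a fit on autosomes, eBayes without trend and, added after seeing the data, scaling to 96 spike-in transcripts (fitted over 12 libraries, and for changes of level within a sex) and the most upstream promoter start. Some results are not reported here.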

Additional observations from a re-analysis of the deposited data

Results flagged for a closer look

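The sex difference itself changed between stages by the contrast of the limma fit, with 2 libraries in each group. Between E13.5 and E14.5 the largest shifts towards females on the log2 scale were those of Mei1 (5.63), Inca1 (5.29), H2-Ab1 (5.06), BC051142 (4.78), Mtl5 (4.76) and Ccne2 (4.74). The largest shifts towards males were those of Dnmt3l (-7.95), Spocd1 (-7.57), Ccdc164 (-6.57), Sohlh1 (-6.45), Phlda2 (-6.45) and Vwf (-6.44). The reporter changed between these stages in both sexes, so stage and reporter cannot be told apart.

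Between E14.5 and E15.5, where the reporter was the same, the largest shifts towards females were those of Naa11 (2.45, adjusted p = 0.032), Pmaip1 (2.40, adjusted p = 0.0266), Moap1 (2.31, adjusted p = 0.00951), B3galt6 (2.26, adjusted p = 0.0155), Tmem62 (2.14, adjusted p = 0.0389) and Galk2 (1.87, adjusted p = 0.0113). The largest shifts towards males were those of Pcdhgb4 (-4.85, adjusted p = 0.00287), Hspb1 (-3.91, adjusted p = 0.000474), Sept3 (-3.45, adjusted p = 0.00111), Phlda2 (-3.34, adjusted p = 0.00186), Ly6e (-3.04, adjusted p = 1.73e-05) and Ccnd1 (-2.98, adjusted p = 0.00333). Pcdhgb4 belongs to a cluster whose genes share 3′ exons, so its reads are uncertain. The 2 shifts of Phlda2 have the same sign.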

How the results depend on the processing

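The count of autosomal genes called at E14.5 (5597) lay between 3920, with a filter of 20 RPM that tests fewer genes, and 6247, with no filter, and leaving out 1 library gave 5361 to 5448. Of the calls, 70% with that filter to 100% with autosomes alone in the fit were kept in the same direction, 88.5% under spike-in scaling and 79.1% with a pseudocount of 4. The count for the change from E13.5 (4473) lay between 3349 and 5223, and leaving out 1 library gave 4063 to 4194. The count for the change to E15.5 (509) was 363 to 519 without 1 library, 430 to 667 under the other settings except spike-in scaling, and 1847 with spike-in scaling, and the cause was not tested. With the replicate number as a replicate block the 3 counts were 5603, 4475 and 505. None of 55 pairs of groups had deviations correlated above 0.1 (range -0.070 to 0.054), so no shared effect of the replicate number was seen. This cannot show whether equal numbers share an origin, which the labels do not give. Of the named-gene values under the alternatives, 4189 kept their direction and side of the threshold, 159 were no longer past it, 5 newly passed it and 0 changed sign. List counts stayed within 1.5 times in 448 cases and moved beyond in 17. Depth limits genes under about 0.9 RPM, where 3 reads are not reached.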
